A study of Homo sapiens and Mus musculus with 25 samples.

Results

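Protein-coding promoters without any corrected peak of H3K4 methylation in K562 cells are described here. A promoter was taken as the 1 kb up- and downstream of where the canonical transcript begins (its transcription start site, TSS) in GENCODE release 44, build hg38, on chromosomes 1 to 22 without 13 and 14. Of 18172 such windows, 3755 (20.7%) had no base under a peak of the authors' corrected H3K4me1, H3K4me2 or H3K4me3 list. They are called uncovered promoters below, and the remaining 14417 are called covered promoters. The corrected lists chose them, so the absence of a corrected peak is not a result.

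K562 is an established human cell line from a chronic myeloid leukaemia with erythroid features. The series profiled its chromatin by internally calibrated ChIP-seq, in which barcoded semi-synthetic nucleosomes of known modification are added before immunoprecipitation, with 17 antibodies against H3K4 methylation. The 3 corrected lists were computed by the authors from the libraries of Abcam ab8895, ab7766, ab12209 and ab8580, per the deposited notes. The other 13 antibodies (4 against H3K4me1, 3 against H3K4me2 and 6 against H3K4me3) played no part in the choice of promoters and carry the tests. One list each for H3K27me3 (Cell Signaling Technology 9733) and H3K9me3 (Koide Lab 309M3B) was used beside them. All cells were unmodified K562, every group is a set of antibodies on this 1 line, and no label names a separate culture, which leaves the p-values to measure how antibodies vary on the same chromatin and nothing else. The inputs and the mouse cells of the series were not analysed here. Lists are positions of peaks, the read depth behind them is unknown, and a window without a listed peak does not show an unmodified promoter.

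Methylation of lysine 4 on histone H3 is laid down by MLL and SET1 family enzymes. H3K4me3 sits at the start of active and poised genes, CpG-rich promoters above all, and H3K4me1 on enhancers and promoter flanks. H3K27me3, the Polycomb mark, covers silent developmental genes, and H3K9me3 marks heterochromatin and arrays of zinc finger genes. Promoters that lack H3K4 methylation are in most cells those of genes held silent, such as odour receptors, hair keratins and other tissue-specific genes.

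The 6 promoters below show the range of sequence among uncovered promoters, from a CpG-rich start called by all 13 antibodies to a repeated start called by none of the 22 lists. Each sequence is the RefSeq promoter (GRCh38.p14) from 250 bases before to 50 bases after the start, 5′ to 3′, with every CpG in capitals. CSNK1G3, a casein kinase 1 isoform, holds 27 CpGs in 300 bases (chr5:123511927-123512226, plus strand). RPL3, a protein of the large ribosomal subunit, holds 32 (chr22:39319574-39319873, minus strand). RBMXL2, a testis RNA-binding protein, holds 21 and lies under H3K27me3 (chr11:7088748-7089047, plus strand).
CSNK1G3: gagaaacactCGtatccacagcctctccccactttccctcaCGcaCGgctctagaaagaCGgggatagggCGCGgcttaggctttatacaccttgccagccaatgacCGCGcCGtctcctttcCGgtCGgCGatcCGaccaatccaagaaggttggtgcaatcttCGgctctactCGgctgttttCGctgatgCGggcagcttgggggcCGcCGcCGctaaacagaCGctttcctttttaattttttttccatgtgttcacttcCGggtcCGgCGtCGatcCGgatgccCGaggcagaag
RPL3: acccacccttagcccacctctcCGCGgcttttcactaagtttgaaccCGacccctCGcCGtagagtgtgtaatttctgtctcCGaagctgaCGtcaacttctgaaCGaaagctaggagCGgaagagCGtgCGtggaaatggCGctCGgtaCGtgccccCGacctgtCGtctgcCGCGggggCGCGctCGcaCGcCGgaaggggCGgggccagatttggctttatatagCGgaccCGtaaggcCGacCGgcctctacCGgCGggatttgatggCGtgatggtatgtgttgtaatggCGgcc
RBMXL2: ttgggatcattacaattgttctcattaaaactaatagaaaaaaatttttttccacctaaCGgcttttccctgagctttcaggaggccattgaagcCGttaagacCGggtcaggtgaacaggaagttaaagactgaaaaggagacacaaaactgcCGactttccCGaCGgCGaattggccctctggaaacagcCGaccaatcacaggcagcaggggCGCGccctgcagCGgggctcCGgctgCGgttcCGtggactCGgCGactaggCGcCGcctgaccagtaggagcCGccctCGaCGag
The other three are CpG-poor. OR2K2, an odour receptor under H3K27me3, holds 3 CpGs (chr9:111330175-111330474, minus strand). OR5H14, an odour receptor outside H3K27me3, holds 1 (chr3:98147229-98147528, plus strand). C21orf140 holds 1 as well (chr21:34401023-34401322, minus strand), all of the 32-base words of its window occur elsewhere in the genome, and 1 other promoter in the table has the identical sequence.
OR2K2: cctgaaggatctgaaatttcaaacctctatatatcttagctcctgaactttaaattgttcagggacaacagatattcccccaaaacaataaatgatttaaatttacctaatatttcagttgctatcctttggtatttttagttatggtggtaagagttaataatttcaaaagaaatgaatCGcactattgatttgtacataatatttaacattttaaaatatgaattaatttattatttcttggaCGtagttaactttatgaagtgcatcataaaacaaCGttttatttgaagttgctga
OR5H14: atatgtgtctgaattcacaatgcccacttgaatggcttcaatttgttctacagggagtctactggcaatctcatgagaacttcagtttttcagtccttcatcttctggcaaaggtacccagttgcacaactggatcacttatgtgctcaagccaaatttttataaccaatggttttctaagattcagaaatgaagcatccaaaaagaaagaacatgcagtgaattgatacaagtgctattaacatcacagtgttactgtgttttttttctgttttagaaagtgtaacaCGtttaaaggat
C21orf140: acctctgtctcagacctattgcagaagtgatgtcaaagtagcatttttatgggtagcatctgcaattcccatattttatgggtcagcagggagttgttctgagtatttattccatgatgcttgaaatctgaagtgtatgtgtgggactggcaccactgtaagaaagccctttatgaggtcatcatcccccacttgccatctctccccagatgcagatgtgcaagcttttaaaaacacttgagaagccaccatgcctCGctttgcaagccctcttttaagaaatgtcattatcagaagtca
All 13 antibodies called CSNK1G3 and 10 of 13 called RPL3. RBMXL2 was called by 4 and OR2K2 by 6 of 13, with 0 of 6 H3K4me3 antibodies in either, and OR5H14 and C21orf140 by 0.

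The first question was which single antibodies still called a peak at uncovered promoters, a promoter being called when at least 1 base of its window lay under a peak. Among the H3K4me1 antibodies, EpiGentek A-4031-050 called 43.9% of uncovered and 98.0% of covered promoters, with 86.8% of all promoters as background. Cell Signaling Technologies 5326 BF called 37.3% of uncovered and 97.0% of covered promoters, with 84.7% of all. Thermo Fisher 710795 called 32.2% of uncovered and 93.0% of covered promoters, with 80.5% of all. Active Motif 39635, whose peaks are the widest of the H3K4 lists, had the lowest share of the 4 against this mark, 26.9% of uncovered and 90.4% of covered promoters, with 77.3% of all. The H3K4me2 antibody Cell Signaling Technologies 9725 called 46.9% of uncovered and 98.6% of covered promoters, with 87.9% of all. EMD Millipore 05-1338 called 30.4% of uncovered and 78.9% of covered promoters, with 68.9% of all. Thermo Fisher 710796 called 25.7% of uncovered and 90.1% of covered promoters, with 76.8% of all. Cell Signaling Technologies 9725 thus had the highest share of uncovered promoters among all 13 antibodies.

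Of the 6 H3K4me3 antibodies, 5 called fewer uncovered promoters than any of the 7 antibodies above. The exception, EMD Millipore 07-473, called 29.001% of uncovered and 82.8% of covered promoters, with 71.7% of all, and its 1089 uncovered promoters exceed the 1011 of Active Motif 39635 and the 966 of Thermo Fisher 710796. Abclonal A2357 called 20.9% of uncovered and 68.9% of covered promoters, with 59.0% of all. EMD Millipore 05-745R called 17.8% of uncovered and 70.2% of covered promoters, with 59.4% of all. Those 3 had higher shares of uncovered promoters than the remaining 3. Thermo Fisher PA5-40086 called 16.4% of uncovered and 64.3% of covered promoters, with 54.4% of all. Diagenode C15410003 called 6.10% of uncovered and 51.7% of covered promoters, with 42.3% of all. EpiGentek A-4033-050 called 3.38% of uncovered and 43.9% of covered promoters, with 35.5% of all. These 2 lists, the lowest of all, are also the 2 run beside another input library (AR17, where the other 11 had AR16).

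**Figure D1:**
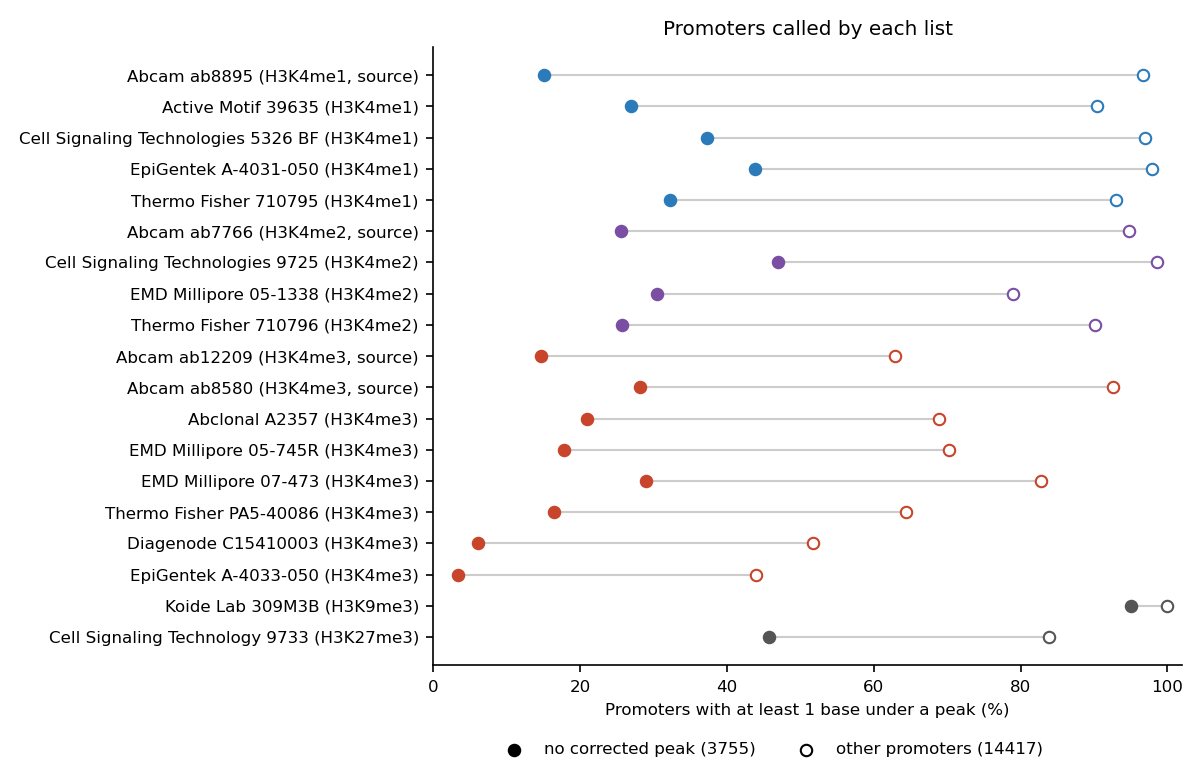
Each row is 1 list with its target, filled points are the 3755 promoters without a corrected peak and open points the 14417 other promoters; the x axis is the percent of promoters with at least 1 base under a peak. Every H3K4 antibody lies lower at promoters without a corrected peak, from 3.38% (EpiGentek A-4033-050) to 46.9% (Cell Signaling Technologies 9725), and the H3K9me3 list covers nearly all of both.

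On average H3K4me1 antibodies called 35.1% ± 7.24 of uncovered promoters (SD, n = 4), H3K4me2 antibodies 34.3% ± 11.1 (n = 3) and H3K4me3 antibodies 15.6% ± 9.52 (n = 6). H3K4me1 exceeded H3K4me3 by 19.5 percentage points (exact two-sided permutation p = 0.0190, adjusted p = 0.114 by Benjamini-Hochberg over 6 tests) and H3K4me2 exceeded it by 18.7 points (exact permutation p = 0.0476, adjusted p = 0.114), so neither difference passed the adjusted threshold of 0.05. Without EMD Millipore 07-473 both passed, at 22.1 points (H3K4me1, exact test, adjusted p = 0.0476) and 21.4 points (H3K4me2, exact test, adjusted p = 0.0476). Among AR16 antibodies alone the difference between H3K4me1 and H3K4me3 was 14.0 points (exact test, adjusted p = 0.214). H3K4me1 and H3K4me2 differed by 0.73 points (exact permutation p = 0.943). Over all promoters the same lists also differ by target. H3K4me1 antibodies called 77.3% to 86.8% of all promoters, H3K4me2 antibodies 68.9% to 87.9% and H3K4me3 antibodies 35.5% to 71.7%. A lower share for H3K4me3 antibodies is therefore not particular to uncovered promoters. Seen from the lists, uncovered promoters made up 8.75% ± 1.37 of the promoters called by an H3K4me1 antibody (SD, n = 4), 9.02% ± 2.05 of those of an H3K4me2 antibody (n = 3) and 5.51% ± 2.51 of those of an H3K4me3 antibody (n = 6), and no pair passed the threshold (exact permutation, adjusted p = 0.114 for H3K4me1 against H3K4me3, 0.125 for H3K4me2 against H3K4me3 and 0.926 for H3K4me1 against H3K4me2). Without EMD Millipore 07-473 the first of these passed, at 3.81 points (exact test, adjusted p = 0.0476).

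The 4 antibodies behind the corrected lists are described only, because they chose the promoters. Abcam ab8580 called 28.2% of uncovered and 92.6% of covered promoters, with 79.3% of all. Abcam ab7766 called 25.5% of uncovered and 94.8% of covered promoters, with 80.5% of all. Abcam ab8895 called 15.1% of uncovered and 96.7% of covered promoters, with 79.8% of all. Abcam ab12209, whose peaks cover the least of the genome among the 4, called 14.6% of uncovered and 62.8% of covered promoters, with 52.9% of all. None of these 4 called 2087 of the uncovered promoters, at least 1 called 1668, and all 4 called 122. Of all 18172 promoters, at least 1 called 16025 and all 4 called 8762.

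The authors' value of the peak was taken here as a calibrated density of the modification, and the highest was used where several peaks met a window. Where an antibody did call an uncovered promoter, the median of this value was lower than at covered promoters in 11 of 11 unused lists that give one. The ratio of medians ran between 0.567 and 0.969. Abclonal A2357 had a median of 43.4 at uncovered and 45.0 at covered promoters, EMD Millipore 05-745R 38.0 and 39.2, and Thermo Fisher PA5-40086 34.7 and 36.4. At those 3 H3K4me3 antibodies the peaks were nearly as high as elsewhere. EMD Millipore 07-473 had a median of 21.7 at uncovered and 38.3 at covered promoters, the widest gap. Its called windows held a median of 1385 bases under a peak at uncovered and 1979 at covered promoters. The effect of more peaks per window on the highest value was not tested. These values are the authors' own and are compared within a list only.

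Uncovered promoters are a mixture. Of the 13 unused antibodies, 0 called 1147 of them (30.5%, against 6.39% of all promoters), 1 to 4 called 1368, 5 to 8 called 814, and 9 to 13 called 426, a share of 11.3% where 58.4% of all promoters reach 9. All 13 called 12 uncovered promoters, against 31.1% of all promoters. Counting any of the 17 H3K4 antibodies, 2655 uncovered promoters had at least 1 peak, as had 17063 of all 18172 promoters. A peak of at least 4 of the 6 H3K4me3 antibodies was present at 530 (14.1%, against 54.4% of all promoters).

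**Figure D2:**
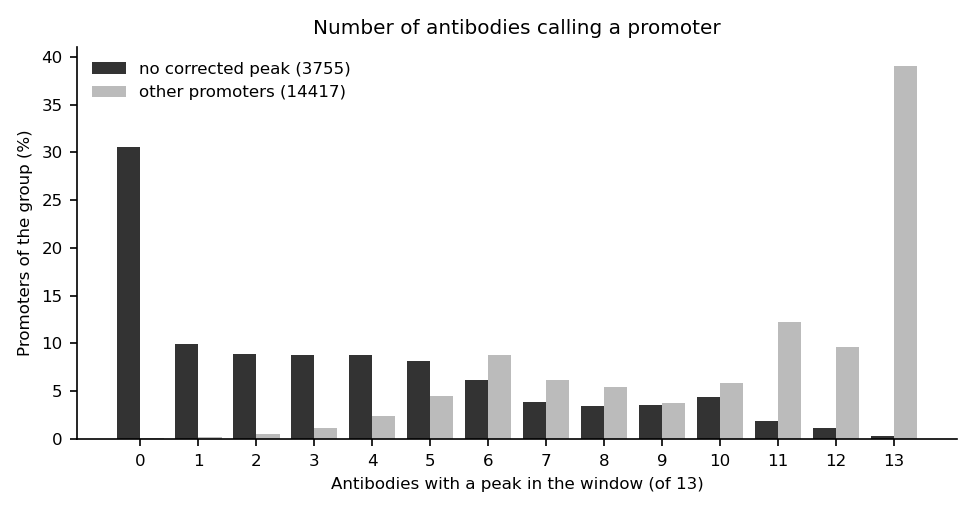
The x axis is the number of the 13 unused antibodies with a peak in the window and the y axis the percent of promoters, with dark bars for the 3755 promoters without a corrected peak and light bars for the 14417 others. The dark bars are highest at 0 antibodies (30.5%) and the light bars at 13 (39.1%).

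By target, 1045 uncovered promoters were called by at least 1 antibody against each of the 3 marks. H3K4me1 and H3K4me2 antibodies but no H3K4me3 antibody called 823, H3K4me1 antibodies alone called 366, and H3K4me3 antibodies alone called 65. These patterns were not counted over all promoters, so no background share stands beside them. A single antibody of the 17 accounted for the call at 344 uncovered promoters, while 1.94% of all promoters are called by 1 alone. Active Motif 39635 (51 promoters), EpiGentek A-4031-050 (49), Cell Signaling Technologies 9725 (43), EMD Millipore 05-1338 (37) and Cell Signaling Technologies 5326 BF (36) gave most of these lone calls. EpiGentek A-4033-050 gave 1.

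The 12 uncovered promoters called by all 13 antibodies are not all separate places, since some genes share a start. KYNU encodes kynureninase of tryptophan breakdown, COX7A2 a subunit of cytochrome c oxidase, SAMM50 a part of the mitochondrial sorting and assembly machinery, and FGF22 a fibroblast growth factor. DHPS, deoxyhypusine synthase, starts beside ENSG00000285589. ZNF547, a zinc finger gene, and TRAPPC2B, of the TRAPP transport complex, have the same start, and ENSG00000268133 begins beside it. CSNK1G3, ZNF254 and ZNF738 complete the set. The nearest corrected peak lay 1005 bases from the TSS of CSNK1G3, 1389 from KYNU, 1533 from COX7A2 and 1916 from DHPS, but 10158 from SAMM50 and 15167 from ZNF254.

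Few uncovered promoters lie close to the edge of the rule. The nearest corrected peak was a median of 9065 bases from the TSS (quartiles 3146.5 and 31221.5), within 2 kb at 560 promoters, over 100 kb away at 403 and over 1 Mb away at 44. Just inside the rule, 77 uncovered promoters had a corrected peak within 100 bases beyond the end of the window, the closest being ANKRD66 at 1002 bases, AMBN (ameloblastin, of tooth enamel) and TMEM178A at 1003, and CHST1 (a sulfotransferase) at 1004. Just outside it, 74 covered promoters had 1 to 100 bases under a corrected peak, the fewest being PLEKHG4B with 2 bases, SHANK1 (a scaffold of excitatory synapses) with 5, NECAB2 with 6, CCDC191 with 7 and BASP1 with 9. CHST1 was called by 1 of 13 antibodies and BASP1, on the other side of the edge, also by 1.

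H3K27me3 was less common at uncovered promoters than elsewhere. Its list, which covers 1862 Mb of the genome, reached 1718 of 3755 uncovered promoters (45.8%) and 83.8% of covered promoters, with 76.0% of all promoters as background. The share was lower at uncovered promoters on 20 of 20 chromosomes, from 45.9% of uncovered and 96.1% of covered promoters on chromosome 1 to 52.1% and 56.4% on chromosome 19. The H3K9me3 list covers 2503 Mb and reached 95.1% of uncovered and 99.99% of covered promoters, with 99.0% of all, so being inside it says little. Outside it lay 184 uncovered promoters and 1 covered promoter, 1.02% of all. Of those 184, 154 (83.7%) had windows made mostly of repeated words, as described below.

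Which uncovered promoters were called more, those under H3K27me3 or those outside it, varied with the antibody. Active Motif 39635 called 54.9% of uncovered promoters under H3K27me3 and 3.29% of those outside it, Cell Signaling Technologies 5326 BF 47.3% and 28.96%, EpiGentek A-4031-050 52.0% and 37.0%, and Thermo Fisher 710795 34.2% and 30.4%. All 4 H3K4me1 antibodies were thus higher under H3K27me3 over all uncovered promoters. Of the 6 H3K4me3 antibodies, EMD Millipore 07-473 alone was higher under it (30.2% and 28.0%), and Abclonal A2357 called 14.7% under and 26.2% outside it, Thermo Fisher PA5-40086 10.1% and 21.7%, and EMD Millipore 05-745R 13.6% and 21.4%. H3K4me2 antibodies were mixed, with Cell Signaling Technologies 9725 at 59.3% and 36.5% and EMD Millipore 05-1338 at 25.7% and 34.4%. The direction depended on where the promoters lie. In 39 bins of 10 Mb where at least 50% of the promoters are uncovered, described below, 3 of the 4 H3K4me1 antibodies were lower under H3K27me3 (Cell Signaling Technologies 5326 BF 28.2% and 32.6%, EpiGentek A-4031-050 40.2% and 42.96%, Thermo Fisher 710795 30.7% and 36.6%), and all 3 H3K4me2 and all 6 H3K4me3 antibodies were lower too. Outside those bins all 4 H3K4me1 antibodies were higher under it, by 30.6 ± 20.8 points (SD, n = 4). The same split was not made at covered promoters, so it is unknown whether these directions are particular to uncovered ones.

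Over all 13 antibodies the share was 28.9% ± 19.7 under H3K27me3 and 23.4% ± 11.5 outside it (SD, n = 13), a difference of 5.55 points that was positive in 7 of 13 (exact sign-flip test, two-sided p = 0.310, adjusted p = 0.338). The difference itself averaged 22.2 ± 20.6 points for H3K4me1 (SD, n = 4) and -5.82 ± 5.45 for H3K4me3 (n = 6), 28.0 points apart (exact permutation p = 0.00476, the smallest this design can give, adjusted p = 0.0429 over 9 tests). That call was lost when any of the 4 H3K4me1 antibodies was left out, and when Abclonal A2357, EMD Millipore 05-745R, Thermo Fisher PA5-40086, Diagenode C15410003 or EpiGentek A-4033-050 was, with 18.2 points (exact test, adjusted p = 0.0536) without Active Motif 39635 and at most 34.1 points without Thermo Fisher 710795 (exact test, adjusted p = 0.107). Among AR16 antibodies the targets were 29.4 points apart, and 4 against 4 antibodies allow no p below 0.0286, so adjusted p = 0.129 (exact test) says little there. Antibodies also carry set numbers in the deposited names, whose meaning is not given. In the 1 set with both targets (AR16-5), the difference was 18.3 and 15.0 points for the 2 H3K4me1 antibodies and -7.84 for EMD Millipore 05-745R, while the other 5 H3K4me3 antibodies are in sets without H3K4me1, so target and set cannot be told apart for them.

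Uncovered promoters under H3K9me3 were called in 27.2% ± 13.7 and those outside it in 0.418% ± 0.452 of cases (SD, n = 13 antibodies), higher inside in 13 of 13 (26.8 points, exact sign-flip p = 0.000244, the smallest possible, adjusted p = 0.00146). Of the 184 promoters outside H3K9me3, 168 had no peak of any of the 22 lists and 154 had repeated windows. The other 30 had no repeated window, and 24 of those 30 lie in the stretch of chromosome 9 described below. Those 184 are thus mostly windows without a peak of any list, so the p-value says little about H3K9me3 itself. The part of repeats and of that stretch in this difference was not tested.

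CpG content divided uncovered promoters further. CpG-rich windows, with an observed-over-expected CpG ratio of at least 0.6 and GC of at least 50%, made up 42.9% of uncovered and 53.9% of covered promoters, against 51.6% of all. All 13 antibodies called CpG-rich uncovered promoters more often, 32.6% ± 13.7 against 20.9% ± 13.7 at CpG-poor ones (SD, n = 13), a difference of 11.6 points (exact sign-flip p = 0.000244, the smallest possible, adjusted p = 0.00146). EMD Millipore 05-1338 differed most, with 45.8% of CpG-rich and 18.9% of CpG-poor ones, followed by Abclonal A2357 with 34.8% and 10.5%. Thermo Fisher PA5-40086 came next, with 27.6% and 7.97%, and EpiGentek A-4033-050 differed least, with 4.29% and 2.70%. The 3 antibodies with the largest differences are the 3 whose libraries had 12 amplification cycles, where the other 10 had 8. Antibody and cycles cannot be told apart here, and the part of cycles in the size of these differences was not tested. When corrected peaks below their list's median value no longer counted, the difference was 9.07 points, in 10 of 13 antibodies, and no longer passed (exact test, adjusted p = 0.0732). At covered promoters, a call by at least 4 of 6 H3K4me3 antibodies was present at 82.5% of CpG-rich windows and at 64.9% of all windows. A lean to CpG-rich windows is thus not particular to uncovered promoters for H3K4me3. It was not counted antibody by antibody at covered promoters.

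**Figure D3:**
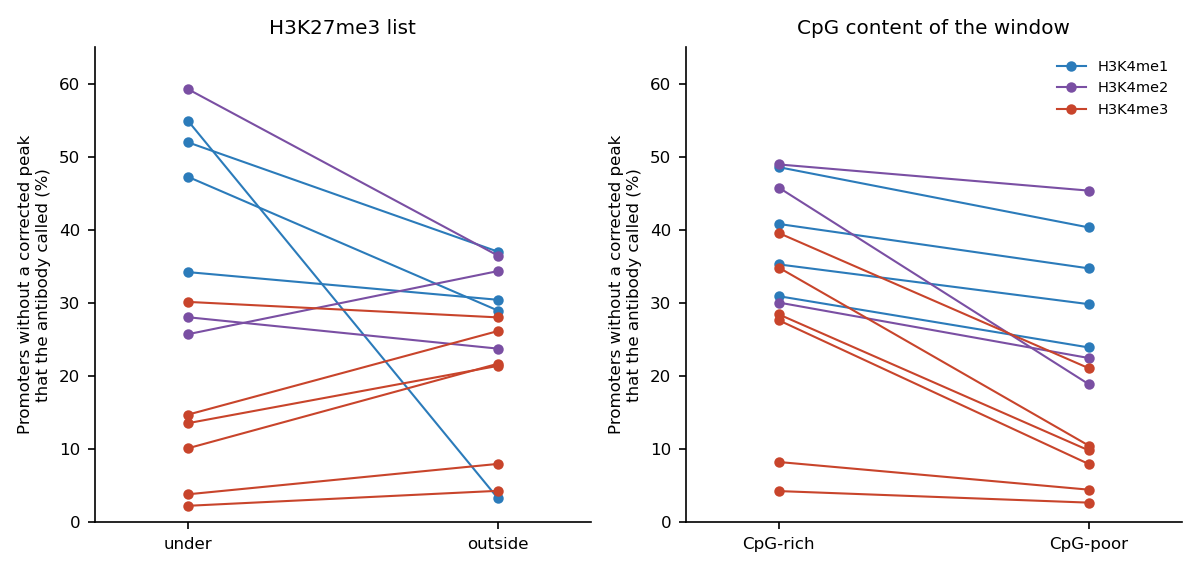
Each line is 1 of the 13 antibodies coloured by target, and the y axis is the percent of promoters without a corrected peak that it called, on the left under and outside the H3K27me3 list and on the right with CpG-rich and CpG-poor windows. The 4 H3K4me1 lines fall to the right in the left panel, steepest for Active Motif 39635 (54.9% under, 3.29% outside), and all 13 lines fall in the right panel.

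CpG-rich windows became more frequent with the number of antibodies, and H3K27me3 did not. Of the 426 uncovered promoters called by at least 9 antibodies, 70.4% were CpG-rich and 33.6% lay under H3K27me3. H3K27me3 was most frequent in between, at 59.3% of the 814 called by 5 to 8 and 60.2% of the 1368 called by 1 to 4, of which 46.6% and 41.2% were CpG-rich. Of the 1147 called by 0, 367 were CpG-rich and 23.4% lay under H3K27me3. The 530 called by at least 4 H3K4me3 antibodies were CpG-rich in 70.8% of cases and under H3K27me3 in 28.5%. Over all promoters, at least 4 H3K4me3 antibodies called 9887, of which 6779 were CpG-rich. A high CpG-rich share is thus not particular to uncovered promoters. The 1310 called by H3K4me1 or H3K4me2 but no H3K4me3 antibody were CpG-rich in 34.2% and under H3K27me3 in 66.0%. The shares by number of antibodies were not counted over all promoters. Among RefSeq promoters whose start lay within 100 bases of the canonical TSS (2314 of the 2747 uncovered promoters in the table), the median number of CpGs in 300 bases was 16.5 at uncovered and 25 at covered promoters. The letters TATAAA on either strand were found in 15.9% of uncovered and 8.47% of covered promoters, against 9.92% of all promoters of that length. The share was 19.7% at uncovered promoters called by 0 antibodies and 5.46% at those called by at least 9.

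Repeated sequence was far more frequent at uncovered promoters. Windows in which over 50% of 32-base words occur elsewhere in the genome numbered 602 (16.0%) among uncovered and 55 (0.381%) among covered promoters, against 3.62% of all. None of the 13 antibodies called 517 of the 602. None of the 22 lists, H3K27me3 and H3K9me3 included, had a peak at 168 uncovered promoters (0.924% of all promoters; covered promoters are in a corrected list by the rule). Of these 168, 141 had repeated windows and 25 lay on chromosome 9 between 20 and 30 Mb, some in both sets. How reads of repeated sequence were treated is not given in the sources used here, and its part in the missing peaks was not tested. The 4 remaining ones, named after their values were seen, are MRPL23 (a mitochondrial ribosomal protein) on chromosome 11 and, side by side on chromosome 22, DGCR6, ENSG00000283809 and PRODH (proline dehydrogenase).

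On chromosome 9 from 20 to 30 Mb all 37 promoters were uncovered, and the corrected H3K4me1 list covers 0 Mb of that bin. The type I interferon genes lie there, ligands that cells release on viral infection, among them IFNB1, IFNE and IFNA2, with CDKN2A and CDKN2B, inhibitors of the cell cycle kinases, and none of these 5 had a peak of any of the 22 lists. K562 is known to have lost CDKN2A from its genome. Copy number was not analysed here, so its part in this stretch was not tested. In the same bin FOCAD (focadhesin) was called by 10 of 13 antibodies and PLAA by 2. The genes of this bin were named after their values were seen.

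Uncovered promoters were not spread evenly. Their share of a chromosome's promoters ran between 7.61% on chromosome 6 and 48.5% on chromosome 18, with 39.8% on chromosome 22. In 39 bins of 10 Mb (with at least 10 promoters) 50% or more of the promoters were uncovered, 1392 of 2023 in all, or 37.1% of all uncovered promoters, while the other 225 bins had 14.6%. These bins are defined by the share itself, so the contrast is a description. The stretches of such bins with most uncovered promoters were chromosome 17 from 0 to 20 Mb (220 of 336 promoters), chromosome 2 from 200 to 250 Mb (204 of 315), chromosome 3 from 60 to 130 Mb (193 of 271), chromosome 12 from 0 to 20 Mb (144 of 222), chromosome 10 from 110 to 140 Mb (109 of 149) and chromosome 18 from 40 to 80 Mb (105 of 130). In such bins the corrected H3K4me1 list covers a median of 0.605 Mb and the H3K27me3 list 1.61 Mb, against 4.19 Mb and 8.78 Mb in the other bins.

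**Figure D4:**
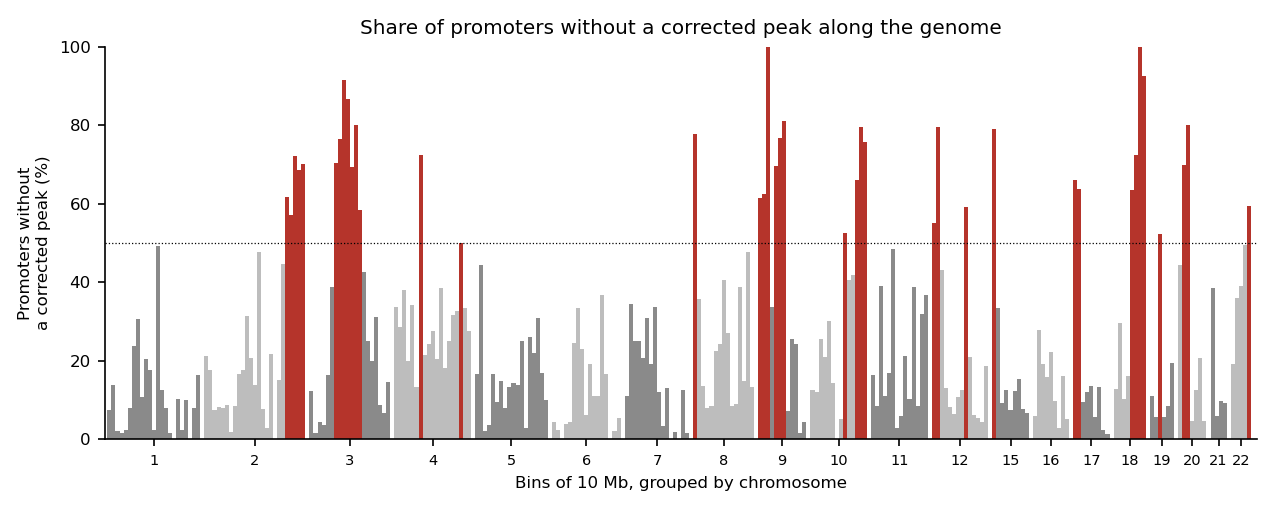
Each bar is a bin of 10 Mb with at least 10 promoters, grouped by chromosome, and the y axis is the percent of its promoters without a corrected peak; red bars reach the dotted line at 50%. Red bars stand side by side on chromosomes 2, 3, 9, 10, 12, 17, 18 and 20, while chromosomes 1, 5, 6, 7, 11, 16 and 21 have none.

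Antibodies differed in these bins too. Of the uncovered promoters inside them, 300 (21.6%) were called by at least 4 of 6 H3K4me3 antibodies, against 9.73% of those elsewhere. At covered promoters the shares were 71.0% and 64.6%. Abclonal A2357 called 31.1% of uncovered promoters inside the bins and 14.9% elsewhere, and Thermo Fisher PA5-40086 25.1% and 11.3%. EMD Millipore 05-1338 called 40.2% and 24.6%. Libraries of these 3 had 12 amplification cycles, while EMD Millipore 05-745R, with 8, called 25.0% and 13.6%. The part of cycles was not tested. Active Motif 39635 went the other way, with 1.87% inside and 41.7% elsewhere, and called no more than 26 uncovered promoters inside. Cell Signaling Technologies 5326 BF (31.6% and 40.7%) and Cell Signaling Technologies 9725 (41.8% and 49.9%) were lower inside too. So was EpiGentek A-4031-050 (42.3% and 44.8%). All other unused antibodies were higher inside. H3K27me3 lay at 23.4% of uncovered promoters inside and 58.9% elsewhere. It lay at 31.4% and 86.2% of covered promoters, so its lower share inside the bins is not particular to uncovered promoters. The share of CpG-rich windows was close, 43.5% and 42.5% (60.7% and 53.5% at covered promoters). K562 is aneuploid, chromosome copy number was not analysed here, and its part in these stretches was not tested.

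Neighbouring promoters were often uncovered together. The 3755 promoters fall into 1515 runs of adjacent uncovered promoters, of which 840 are a single promoter and 178 hold 5 or more, 1641 promoters in all. The longest, 48 promoters from DEFA1 to PRAG1 on chromosome 8, spans 1.41 Mb, includes the defensin cluster, has a median of 96.2% repeated words, and was called by 0 of 13 antibodies at 46. SLC24A2 to LINGO2 on chromosome 9 holds 38 promoters, the interferon stretch above, with 35 called by 0 antibodies. HHLA2 to SIDT1 on chromosome 3 holds 36, of which at least 4 H3K4me3 antibodies called 10 and H3K27me3 covered 2.78%. OR4C5 to OR5F1 on chromosome 11 holds 33 in an odour receptor cluster around the centromere, 23 with 0 antibodies. MC4R to RTTN on chromosome 18 holds 31, 7 of them called by at least 4 H3K4me3 antibodies.

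Gene groups were then counted, each share to be read against the 20.7% of all promoters that are uncovered. The 34 groups, made from gene symbols, hold 1003 uncovered promoters (26.7%) and 17.4% of all promoters. Counts describe the groups and carry no test, since the members were chosen on the same peaks. The part of location in a group's share was not tested.

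**Figure D5:**
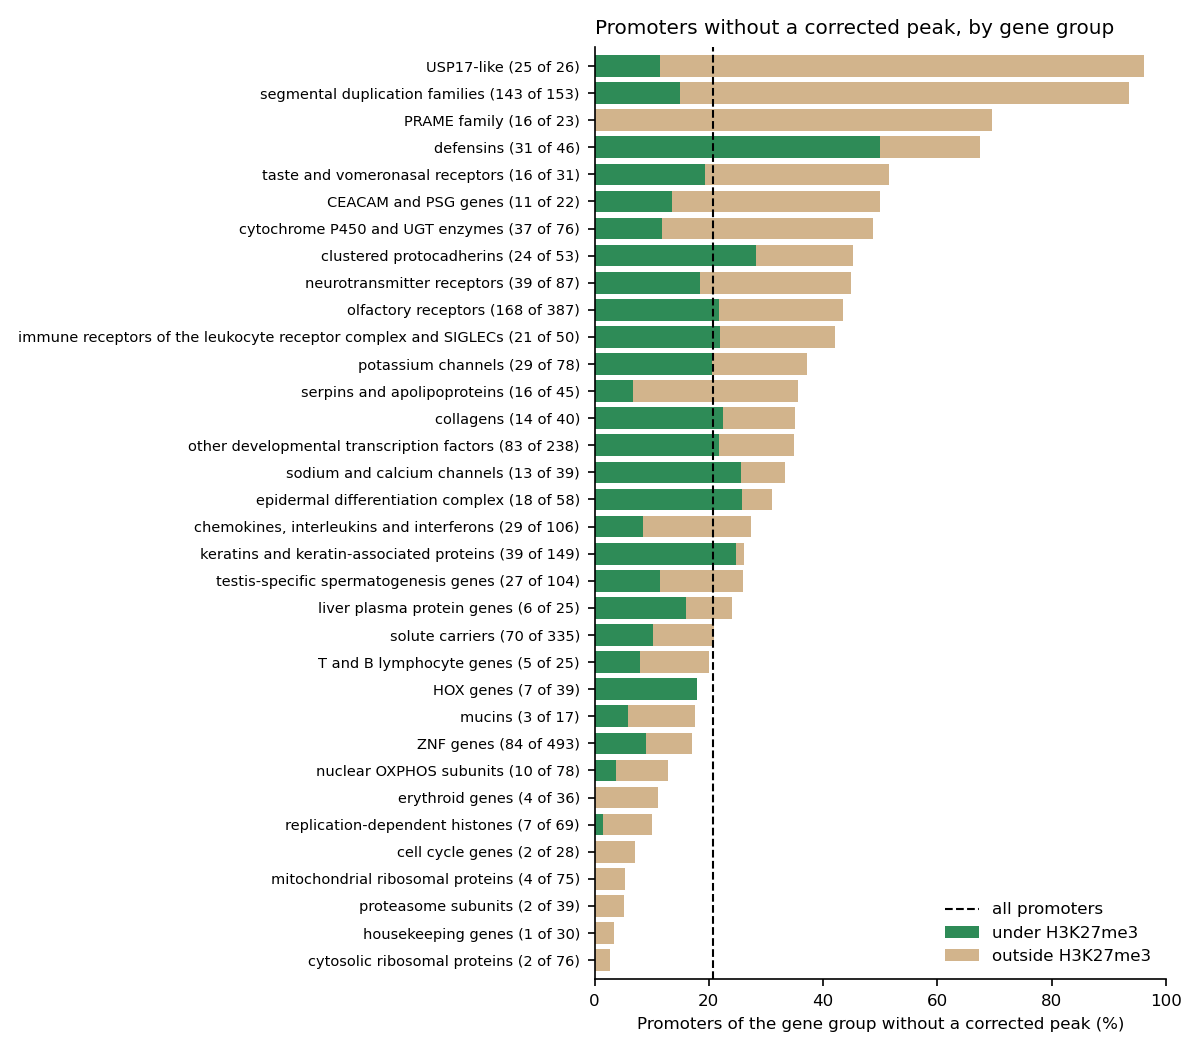
Bars give the percent of each gene group's promoters that have no corrected peak, divided into those under the H3K27me3 list and those outside it, with uncovered and total promoters in parentheses; the dashed line is the 20.7% of all promoters. Duplicated gene families are at the top (USP17-like, 25 of 26) and ribosomal proteins at the bottom (2 of 76).

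Chemosensory receptors were uncovered more often than promoters at large. Of 387 odour receptors, 168 were uncovered, 84 of these lay under H3K27me3, 75 had 0 of 13 antibodies, and none was called by at least 4 H3K4me3 antibodies. The most widely called were OR7G3 (7 antibodies) and OR10G6 (6), each by all 4 H3K4me1 antibodies and 1 of 6 against H3K4me3, and OR10AG1 and OR11H1 had 0. H3K4me1 antibodies called 26.2% of uncovered odour receptor promoters on average and H3K4me3 antibodies 0.694%. Of 31 taste and vomeronasal receptors 16 were uncovered, with VN1R2 called by 6 antibodies and the bitter taste receptors TAS2R30 and TAS2R31 by 0. Of those 16, 13 lay in bins where at least 50% of promoters are uncovered, as did 31 of the 168 uncovered odour receptors. TAS2R30 and TAS2R31 lie on chromosome 12 from 10 to 20 Mb, where 70 of 88 promoters are uncovered.

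Genes of skin and hair were uncovered at 39 of 149 keratin and keratin-associated promoters and at 18 of 58 promoters of the epidermal differentiation complex, which builds the cornified envelope. H3K27me3 lay over 37 of those 39 (94.9%) and 15 of those 18 (83.3%), against 45.8% of uncovered and 76.0% of all promoters. The epidermal share was close to the 83.8% of covered promoters. The list is also broad around these genes. It covers 8.30 Mb of the chromosome 17 bin from 40 to 50 Mb, which holds KRT39 and KRTAP1-4. In the chromosome 1 bin from 150 to 160 Mb, which holds the epidermal gene CRNN, it covers 9.09 Mb. Whether the shares exceed this local level was not tested. KRT39 and KRTAP1-4 were each called by 6 antibodies, all 4 against H3K4me1 and 2 against H3K4me2, and KRTAP4-11 and KRTAP4-7 by 0. No keratin or epidermal promoter was called by at least 4 H3K4me3 antibodies.

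Defence and immune genes varied. Defensins, antimicrobial peptides, were uncovered at 31 of 46 promoters, of which 22 were repeated, and DEFB124 was called by 8 antibodies and DEFA1 and DEFA1B by 0. Chemokines, interleukins and interferons were uncovered at 29 of 106, and 16 of the 29, all type I interferon genes on chromosome 9, were in none of the 22 lists. Outside the chromosome 9 stretch 12 of 89 were uncovered (13.5%), below the background. IL11, a cytokine of the IL6 family, was called by 8 and CCL23 by 7, while CCL20 and CXCL16 had 0. Receptors of the leukocyte receptor complex, SIGLECs and their kin were uncovered at 21 of 50 and CEACAM and pregnancy-specific glycoproteins at 11 of 22. Lymphocyte genes, with 5 of 25, were near the background. Of these CD5 was called by 3 antibodies, CD28 by 2, PAX5 by 1, and CD8B and CTLA4 by 0.

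Neuronal and developmental genes were uncovered more often than promoters at large. Neurotransmitter receptors were uncovered at 39 of 87 promoters, clustered protocadherins (neuronal recognition molecules) at 24 of 53, potassium channels at 29 of 78, and sodium and calcium channels at 13 of 39. HTR1F, a serotonin receptor, was called by 10 antibodies and CHRNB1, of the muscle acetylcholine receptor, by 9, whereas DRD3, a dopamine receptor, had 0. PCDHA5 was called by 10 and PCDHA1 by 9, and PCDHB10 and PCDHB13 by 1 each. Developmental transcription factors other than HOX were uncovered at 83 of 238, 52 of them under H3K27me3 and 69 of them CpG-rich. EN1 (Engrailed 1) and KLF13 were each called by 11 antibodies and ALX1 and FOXA2 by 0.

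HOX genes, which set the body axis in the embryo, lay uncovered at 7 of 39 promoters, near the background share. All 7, HOXA9 and HOXA13 among them, are among the 11 promoters of the HOXA cluster, CpG-rich, and under H3K27me3. That list covers all 56 promoters of the bin around the cluster (chromosome 7 from 20 to 30 Mb), and 25 of the 32 covered HOX promoters lay under it and 20 were CpG-rich. HOXA9 was called by 8 antibodies, all 4 against H3K4me1, all 3 against H3K4me2 and 1 of 6 against H3K4me3. No HOXA promoter among the 7 was called by more than 1 H3K4me3 antibody.

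Groups of metabolism and matrix genes ranged widely. Cytochrome P450 and UGT enzymes were uncovered at 37 of 76 promoters, serpins and apolipoproteins at 16 of 45, collagens at 14 of 40, liver plasma proteins at 6 of 25, mucins at 3 of 17 and solute carriers at 70 of 335, close to the background share. CYP20A1 was called by 10 antibodies and CYP26A1, which degrades retinoic acid, by 8, while CYP2C19, a drug-metabolising enzyme, had 0. COL6A1 was called by 11 and COL11A1 by 0. SERPINB5 was called by 7, APOB by 6 and ALB (albumin) by 4. SLC35G2 was called by 11 and the peptide transporter SLC15A2 by 0. Genes with SPATA, TEX and similar testis symbols were uncovered at 27 of 104, 18 of the 27 in such bins. ADAM2, a sperm surface protein, was called by 8 and SPATA31A1 by 0.

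Duplicated families had the highest shares. USP17-like deubiquitinases were uncovered at 25 of 26 promoters, 24 of them with 0 antibodies and all 25 repeated. Families in segmental duplications were uncovered at 143 of 153, of which 132 were repeated, 133 had 0 antibodies and 46 were in none of the 22 lists, and PRAME genes at 16 of 23, all 16 repeated. NBPF20 was called by 10 antibodies and GOLGA6L2 by 7, and AMY1A and AMY1B (salivary amylase) had 0. Near-identical copies share reads, so a value at 1 copy is uncertain, and this was not tested.

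Zinc finger genes, many of them KRAB-type repressors, were uncovered at 84 of 493 promoters, below the background, yet at least 9 of 13 antibodies called 24 of the 84 and at least 4 of 6 H3K4me3 antibodies called 32. H3K4me3 antibodies called 40.3% of uncovered zinc finger promoters on average, against 15.6% of all uncovered promoters. ZNF254 and ZNF547 were called by all 13, and ZNF286A and ZNF519, both with repeated windows, by 0.

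Genes in constant use were seldom uncovered, and those that were had mostly been called by the H3K4me3 antibodies. Of 76 cytosolic ribosomal proteins, 2 were uncovered, RPL3 (10 antibodies, 5 of 6 against H3K4me3) and RPL24 (7, with 4 of 6 against H3K4me3 and 0 of 4 against H3K4me1). Of 30 housekeeping genes, 1 was, POLR2A, the largest subunit of RNA polymerase II, with 6 antibodies and a corrected peak 1265 bases from its TSS. Of 39 proteasome subunits PSMD6 (9 antibodies) and PSMB6 (6) were uncovered, each called by 4 of 6 against H3K4me3. Of 78 nuclear subunits of oxidative phosphorylation 10 were uncovered, 8 of them called by at least 4 H3K4me3 antibodies, with COX7A2 at 13, ATP5MK at 12, and NDUFB8 at 4. Mitochondrial ribosomal proteins were uncovered at 4 of 75, MRPL3 with 10 antibodies, MRPL51 with 9, and MRPL23 and MRPL45 with 0.

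Of 28 cell cycle genes MKI67, the proliferation marker, was uncovered with 10 antibodies and CCND2, cyclin D2, with 4. Replication-dependent histones were uncovered at 7 of 69, of which 6 had repeated windows. H3C14 was called by 9 antibodies, 6 of 6 against H3K4me3, and H2BC18 and H3C13 by 0. Erythroid genes, the lineage K562 resembles, were uncovered at 4 of 36. CPOX, coproporphyrinogen oxidase of haem synthesis, was called by 8 antibodies, 4 of 6 against H3K4me3, and its nearest corrected peak was 35765 bases away. HBA2 (alpha globin) was called by 4 and GYPB (glycophorin B) by 1, and over 50% of the words in each of these 2 windows occur elsewhere in the genome.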

How the data were processed

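Peaks of 17 anti-H3K4 methylation antibodies, H3K27me3 and H3K9me3 in K562, with 3 corrected lists, were used as deposited. Bowtie2, SAMtools, bedtools and MACS2 and build GRCh38 (hg38) are named in the submitters' processing notes, and versions, calling settings and read depth were not found in these sources. The authors deposited a score for each peak in 17 lists, with no header to name its unit; it reaches 107.5 and was taken as a calibrated density. The other 5 lists hold positions only. Antibodies are single libraries, not pooled.

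Windows of 1 kb either side of 18172 canonical GENCODE release 44 TSSs were intersected with each list (smallest overlap 1 base; python 3.11.15, numpy 2.4.6, pandas 2.3.3). GC, CpG and 32-base words were counted on hg38. Each of the 13 antibodies gave 1 value, compared by exact permutation tests between targets and exact sign-flip tests within antibodies, with Benjamini-Hochberg adjustment over 6, 12 and 9 tests and a threshold of 0.05, after testing on simulated data. All 3755 promoters entered every comparison. Named genes are, per gene group, the 2 called by most and the 2 by fewest antibodies, the 10 of all called by most, those nearest the edge of the rule and the ends of the longest runs; others were chosen after their values were seen, and some genes the rule names are not reported here. The members, gene groups and tests were chosen with earlier results of these data known. Alternatives changed the window, overlap, TSS, corrected peaks, chromosomes, CpG cutoffs and antibodies.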

Additional observations from a re-analysis of the deposited data

Results flagged for a closer look

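EMD Millipore 07-473 stood far from the other H3K4me3 antibodies in the authors' value of its peaks, the highest per window. The ratio of the median at uncovered promoters to that at covered promoters was 0.567, while the other 3 H3K4me3 lists with values lay between 0.952 and 0.969. The gap to the nearest of them is 0.958 of the range of the 4, past Dixon's 95% limit. Of 12 groups of antibodies looked at, chance alone flags about 1 in 20.

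The difference between uncovered promoters under and outside H3K27me3 was 28.0 points larger for H3K4me1 than for H3K4me3 antibodies (exact permutation test, adjusted p = 0.0429), in opposite directions for the means of the 2 targets.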

How the results depend on the processing

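The count of 3755 uncovered promoters ran between 3020 and 5149 under other windows, overlaps, start sites, corrected peaks and chromosomes and was 2363 without the 39 bins above, an alternative added after seeing the data. The H3K27me3 share was 47.4% with 0.5 kb windows, 38.4% with 2.5 kb windows, 48.3% with peaks over at least 50% of the window, 52.8% with only corrected peaks at or above their list's median value, 43.3% without chromosome 9, 58.9% without those bins and 50.3% without repeated windows (also added). In each it was below that of covered promoters. The H3K9me3 share was 94.3% with such peaks, 95.8% without chromosome 9 and 99.0% without repeated windows.

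With corrected peaks at or above the median value, H3K4me1 exceeded H3K4me3 by 26.97 points in the share called and 6.16 points among called promoters, and H3K4me2 exceeded H3K4me3 by 22.1 points, all past the threshold, while the CpG difference of 9.07 points was not. Without the 39 bins the H3K4me1 differences from H3K4me3, 26.95 and 3.63 points, also passed. The H3K27me3 difference between H3K4me1 and H3K4me3 no longer passed with peaks over at least 50% of the window (26.7 points), all 17 antibodies (21.8), AR16 input only (29.4) or 8 cycles only (25.2); the last 2 leave 4 against 4 antibodies, whose smallest p is 0.0286. Leaving out 1 antibody at a time, it ran between 18.2 and 34.1 points (9 of 13 no longer passed, with fewer regroupings to test), H3K4me1 minus H3K4me3 between 16.5 and 22.2, H3K4me2 minus H3K4me3 between 12.5 and 23.0, and among called promoters H3K4me1 minus H3K4me3 between 2.53 and 3.81; the last 3 each passed in 1 of 13 cases, without EMD Millipore 07-473. Comparisons not named here kept their side of the threshold. No paired analysis was possible because the labels give antibodies of different targets no shared replicate numbers. Depth is unknown, so no limit of detection can be set.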

Other observations

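H3K4me3 antibodies alone, with no antibody against the other 2 marks among the 13, called 65 uncovered promoters. Named after their values were seen, they include NDUFS1 of respiratory complex I, called by 4 of 6 H3K4me3 antibodies and 126620 bases from the nearest corrected peak, and NANOG, a pluripotency factor, called by 1 antibody. More widely, 209 uncovered promoters had a call of an H3K4me3 but no H3K4me1 antibody. Of these 61.7% were CpG-rich, 32.1% lay under H3K27me3 and 52.6% lay in bins where at least 50% of the promoters were uncovered. Neither the 65 nor the 209 has a count over all promoters beside it.

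Uncovered promoters called by Active Motif 39635 and by EMD Millipore 05-1338 differed in several shares. H3K27me3 covered 93.4% of the 1011 called by Active Motif 39635 and 38.7% of the 1142 called by EMD Millipore 05-1338. CpG-rich windows made up 49.3% and 64.5%, and promoters with at least 4 of 6 H3K4me3 antibodies 7.42% and 45.4%. The 2 sets overlap, and the antibodies differ in target and in amplification cycles (8 for Active Motif 39635 and 12 for EMD Millipore 05-1338). The difference was not tested.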
